A study of Mus musculus with 42 samples.

Results

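The genes described here are 10 genes of epithelial oxidase and antimicrobial defense: Duox2, Duoxa2, Nos2, Lcn2, Saa1, Saa2, Saa3, Reg3b, Reg3g and Pigr. They were taken by name, with earlier results of these data known, as 10 of the 19232 gene names in 12 tables of normalized RNA-seq counts from mouse colon. All 10 had a row in 3 tables; the missing rows are named with the results.

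The study asked how losing Smad4 or Alk3 in the Gli1+ stroma changes colonic goblet cells, and what IL-1 and IL-17 do to the colonic epithelium. Organoids and 2 kinds of sorted cells were sequenced. The colonic organoids are labelled wild type and came from distal colon per the study. The labels do not say whether they carried the Muc2-mCherry reporter. They received 10 nM IL-1 (IL-1α with IL-1β), 10 nM IL-17A or no cytokine for 12 h or 72 h, with 3 libraries a group. Muc2-mCherry+ cells, which are goblet cells carrying a red reporter, and Gli1-tdTomato+ stromal cells were sorted from proximal and distal colon at day 30 after tamoxifen, with 2 libraries a group.

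All sorted cells came from mice of 2 to 4 months and both sexes that carry the tamoxifen-dependent Cre of the Gli1 promoter (Gli1CreERT2), and control mice received tamoxifen too. GWTM2 and GWTT are the controls without a floxed gene, for Muc2-mCherry+ and Gli1-tdTomato+ cells in this order. GS4M2 and GS4T carry loxP-flanked Smad4, the shared intracellular mediator of BMP and TGF-β signals, and GA3M2 and GA3T carry loxP-flanked Alk3, a BMP type I receptor whose gene is Bmpr1a. The Cre acts in Gli1+ cells, so in the Muc2-mCherry+ cells neither gene was targeted, and the comparison concerns goblet cells beside a deleted stroma. No strain is given in the labels, and nothing ties a library to its own mouse or culture, so p-values measure the spread between libraries, which may be technical.

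Duox2 is an NADPH oxidase of the apical epithelial membrane that releases hydrogen peroxide toward the lumen, and Duoxa2 is the partner protein it needs to leave the endoplasmic reticulum. Nos2 makes nitric oxide from arginine, Lcn2 (lipocalin 2) binds bacterial siderophores and so withholds iron, and Reg3b and Reg3g are secreted C-type lectins that bind bacteria. Saa1, Saa2 and Saa3 are serum amyloid A proteins, made locally in gut epithelium as well as in the acute phase response, and Pigr is the receptor that carries dimeric IgA across the epithelium. Cytokines that act through NF-κB, IκBζ and C/EBP factors, IL-1 and IL-17A among them, are known inducers of many of these genes, and Lcn2, Saa3 and Nos2 are also made by myeloid or stromal cells.

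The bases before the start sites show how the members are arranged and where they carry a C/EBP-type word. On GRCm38, the assembly also called mm10, Duox2 (chr2:122279247-122298449, minus strand) and Duoxa2 (chr2:122298900-122302885, plus strand) stand head to head with 450 bases between them. Saa3, Saa1 and Saa2 lie on chromosome 7, Saa1 (chr7:46740497-46742980, minus strand) and Saa2 (chr7:46751790-46754313, plus strand) with 8809 bases between them, and Saa3 (chr7:46711998-46715700, minus strand) beside them. The others are Nos2 (chr11:78920787-78960254, plus strand), Lcn2 (chr2:32384633-32388252, minus strand), Reg3b (chr6:78370657-78373466, plus strand), Reg3g (chr6:78466269-78468872, minus strand) and Pigr (chr1:130826684-130852249, plus strand). Sequences of RefSeq (GRCm38.p6) matched 9 of the 10 members, and the member without an entry is Nos2. Windows of the 250 bases before the RefSeq start were searched on both strands. Those of Duoxa2, Saa1, Saa2 and Saa3 are given 5′ to 3′ on the strand of the gene, Duoxa2 since it lies between the oxidase genes that moved together in the organoids, and the Saa genes since each holds the word TTGCNNAA, which C/EBP factors bind, printed in capitals. In Saa3 the word lies on the opposite strand, so its capitals read as the reverse complement. They are at chr2:122298650-122298899 (plus strand) for Duoxa2, chr7:46742981-46743230 (minus) for Saa1, chr7:46751583-46751789 (plus) for Saa2 and chr7:46715701-46715926 (minus) for Saa3, the last 2 cut to the 207 and 226 bases outside the exons of the gene in GENCODE.
Duoxa2: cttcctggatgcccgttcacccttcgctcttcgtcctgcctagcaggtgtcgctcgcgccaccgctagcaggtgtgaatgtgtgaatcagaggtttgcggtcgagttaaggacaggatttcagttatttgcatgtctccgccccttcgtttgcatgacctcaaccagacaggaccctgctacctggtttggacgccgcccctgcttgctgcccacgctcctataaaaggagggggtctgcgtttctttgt
Saa1: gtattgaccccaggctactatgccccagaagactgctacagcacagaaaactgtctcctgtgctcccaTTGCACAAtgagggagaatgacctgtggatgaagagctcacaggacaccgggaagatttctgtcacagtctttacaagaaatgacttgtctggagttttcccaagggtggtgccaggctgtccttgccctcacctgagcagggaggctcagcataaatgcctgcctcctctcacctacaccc
Saa2: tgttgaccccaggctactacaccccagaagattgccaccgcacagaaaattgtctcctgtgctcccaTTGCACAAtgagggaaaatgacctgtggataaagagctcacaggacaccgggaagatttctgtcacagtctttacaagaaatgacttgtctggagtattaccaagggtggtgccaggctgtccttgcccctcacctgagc
Saa3: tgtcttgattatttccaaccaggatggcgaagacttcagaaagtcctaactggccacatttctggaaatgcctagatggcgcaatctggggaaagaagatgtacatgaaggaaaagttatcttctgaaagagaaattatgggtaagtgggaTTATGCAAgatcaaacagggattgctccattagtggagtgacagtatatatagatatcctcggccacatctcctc
The windows of Duox2, Lcn2 and Reg3b hold 222, 197 and 74 bases of their own exons in longer GENCODE models and are described by the motifs found in them.

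TTGCNNAA stood in 4 of the 9 member windows and in 9.56% of all 32851 windows of 250 bases. It began 216 bases before the start of Lcn2, 182 before Saa1, 183 before Saa2 and 99 before Saa3. A κB consensus was found in 1 member window, that of Reg3g (3.9% of all windows), and the STAT word TTCNNNGAA in 1, that of Reg3b (7.02%). No member window held more than 1 match. None of the 3 was found in the windows of Duox2, Duoxa2 and Pigr. The windows of Saa1 and Saa2 were identical at 94.8% of aligned positions, against 50.2% for Saa1 and Saa3 and 68.9% for Reg3b and Reg3g. Of the 50-base stretches of the Saa1 transcript 13.2% also occur in Saa2, and of the 100-base stretches 0%. With reads as short as 50 bases, part of the reads of Saa1 and Saa2 may thus not have been counted for either or may be split between them.

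The libraries held 14222902 to 23686940 reads. The 42 samples are 40 distinct libraries: control organoids labelled 12 h replicate 2 hold the same reads as those labelled 72 h replicate 1, and 12 h replicate 4 the same as 72 h replicate 4, so 2 of the 3 controls of each time are the same libraries under 2 labels. The third 72 h control, replicate 2, was close to 12 h replicate 4 as well, with a chi-square per gene of 3.3. Its values to 12 h replicates 1 and 2 were 51.1 and 63.6. No 72 h control was thus clearly distinct from those of 12 h. The IL-1 and IL-17A tables of a time share all 3 controls, and the tables for the Smad4 and Alk3 knockouts share the controls of each segment. The sex of each library was taken from Xist reads alone, female above a fixed cutoff and male otherwise. At 12 h the controls were 2 male and 1 female and each cytokine group 1 male and 2 female. At 72 h the controls were 1 male and 2 female, IL-1 2 male and 1 female and IL-17A 3 male. Of the Muc2-mCherry+ libraries only GWTM2 replicate 1 was female in each segment. Smad4 was at 41.5 to 70.1 CPM (reads scaled to an equal library total) in GS4T cells against 94.8 to 108.6 in GWTT cells, and Bmpr1a at 105.0 to 124.9 CPM in GA3T cells against 166.4 to 188.5, so both targeted genes were lower in every knockout library.

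In organoids Duox2 rose with either cytokine within 12 h, 8.04 times with IL-1 and 10.5 times with IL-17A, and was the only member to pass the test at that time. Its normalized counts, which are reads divided by 1 size factor per library, were 920, 935 and 899 in the controls and 9800.1, 6861 and 5995 with IL-1. In the IL-17A table the controls stood at 966, 979 and 941 and the treated libraries at 10388, 10236 and 9849. Every treated library lay far above every control, and the controls varied little. On log2(normalized count + 1) the differences were 3.01 ± 0.18 (SE, n = 3 a group, limma adjusted p = 0.01077) and 3.40 ± 0.08 (adjusted p = 2.823e-05). Replicates 3 and 4 of each cytokine at 12 h were close to one library, with a chi-square per gene of 3.03 for IL-1 and 3.32 for IL-17A, against 62.0 and 63.3 to replicate 1 for IL-1. With near-identical libraries averaged, an alternative chosen after seeing the data, Duox2 with IL-1 was no longer called (3.11, adjusted p = 0.0599) and with IL-17A it was (adjusted p = 0.001491). Calls here and below need an adjusted p (Benjamini-Hochberg) under 0.05 and a log2 difference of at least 1, among genes with a mean of at least 10.

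Duoxa2 stood at 263, 178 and 70.7 in the controls and at 2704, 889 and 805 with IL-1. With IL-17A it reached 2976, 1526 and 1249. The groups did not overlap, but the log2 differences of 3.05 ± 0.61 and 3.50 ± 0.53 did not pass (limma adjusted p = 0.4799 and 0.1553). The highest values came from male libraries: in males the 2 controls of 263 and 178 stood against 2704, and in females the control of 70.7 against 889 and 805.

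Nos2 counted 167, 74.9 and 423 in the controls and 5143, 4247 and 3743 with IL-1. It counted 1975, 3627 and 3164 with IL-17A. The groups lay apart with either cytokine, at log2 differences of 4.63 ± 0.56 and 3.95 ± 0.59, and again neither passed (limma adjusted p = 0.1066 and 0.1553). Here the female control was the highest, the reverse of Duoxa2.

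Lcn2 had 1 read in all 3 controls and 72 reads with IL-1, normalized counts of 31.2, 20.8 and 20.5. The ratio was 77.6, with a 95% counting interval of 13.5 to 3110 that covers counting error only, and limma gave an adjusted p of 0.1108. Lcn2 had no row in the IL-17A table at 12 h. Saa3 was at 4.69, 9.36 and 0.884 in controls and at 55.6, 17.9 and 14.0 with IL-1 (adjusted p = 0.8861), and with IL-17A at 13.5, 2.97 and 2.91, under the filter on low values. Pigr, high in every organoid, was at 74887, 62282 and 65010.2 in controls, at 99261, 90420.0 and 83604 with IL-1 and at 132554, 120431 and 125115 with IL-17A, log2 differences of 0.44 ± 0.14 and 0.84 ± 0.14 that did not pass (adjusted p = 0.8861 and 0.2179).

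Of the 6 members tested with IL-1 at 12 h, 1 was called higher, and 0.0542% of all 12913 genes were called. Of the 4 tested with IL-17A, 1 was called higher, against 0.0385% of all 12977 genes. All 6 and all 4 had treated libraries above every control, a pattern that 5.3% and 5.91% of all genes showed. With IL-1, Lcn2 and Saa3 passed the filter only through the treated libraries. With IL-17A, Saa3 overlapped its controls and fell under the filter, so it is not among the 4. The member medians were 3.03 and 3.45 on the log2 scale, against 0 over all genes tested. With sex as a block, an alternative chosen after seeing the data, 4 members were called with IL-1 (Duoxa2 with an adjusted p of 0.000617) and 3 with IL-17A. The call of Duox2 with IL-1 was lost without control replicate 1 (adjusted p = 0.1204), without control replicate 2 (0.08486) and without IL-1 replicate 3 (0.1217), leaving 0 members called, and 2 were called without control replicate 4. Saa1 and Saa2 had no row at 12 h, although 2 of these control libraries carry Saa1 counts of 134 and 148 in the 72 h tables, and Reg3b had no row in any organoid table.

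**Figure D1:**
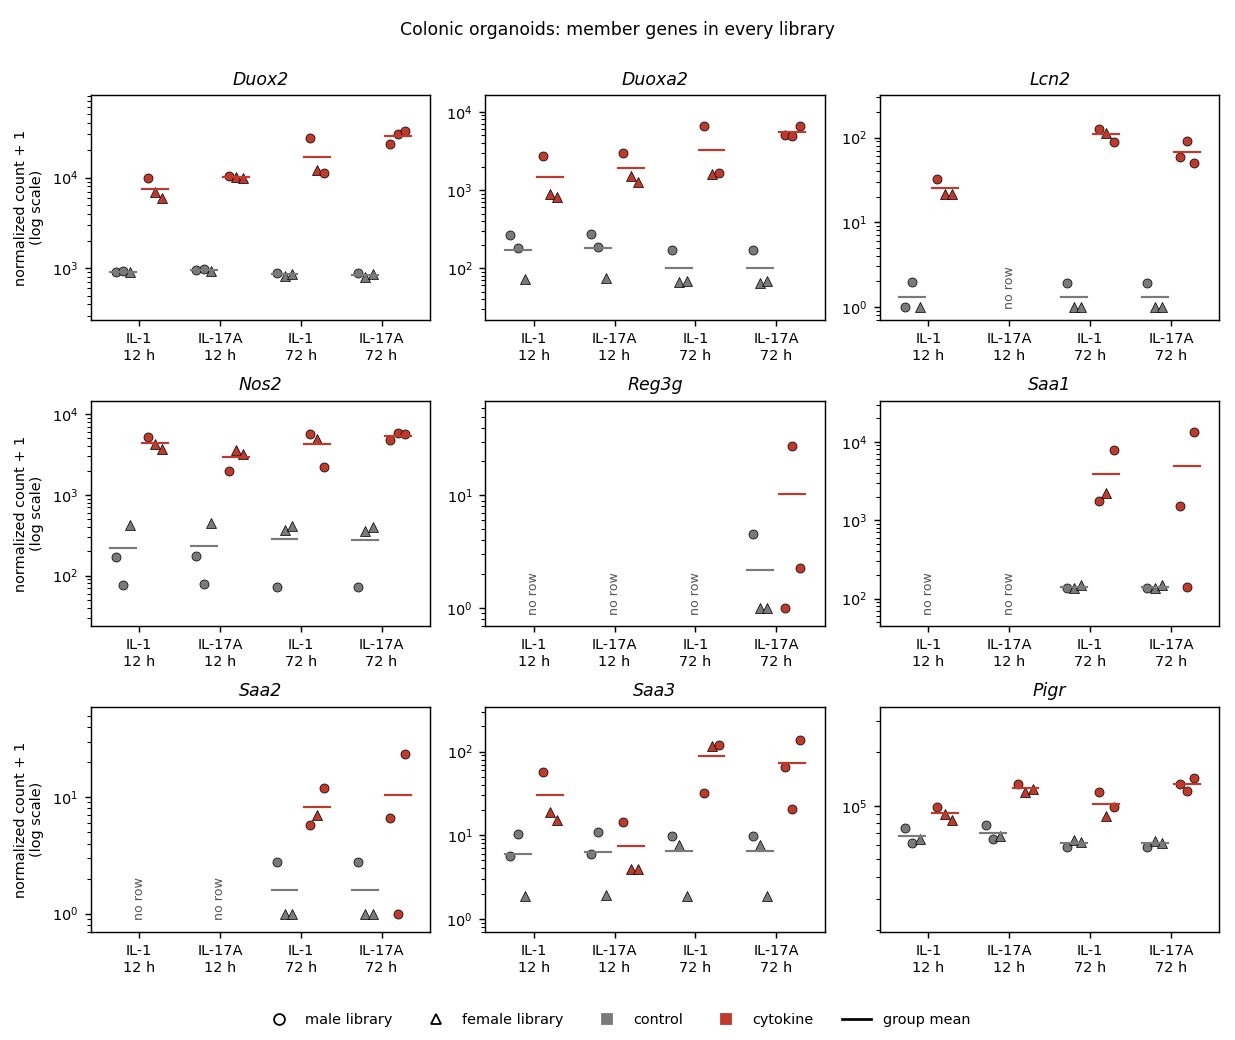
Normalized counts plus 1 on a log axis for 9 genes in each organoid library, by cytokine and time, with a line at each group mean; grey marks controls, red marks cytokine, circles male and triangles female libraries. Duox2 lies between 809 and 979 in every control and at 5995 or above in every treated library, and Saa1 of IL-17A replicate 2 at 72 h sits among the controls.

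After 72 h more members were called than at 12 h, where every tested member already lay above its controls. Saa1 and Saa2 had no row at 12 h, and between times 1 member was called with each cytokine. Duox2 rose 18.2 times with IL-1 and 33.3 times with IL-17A, Duoxa2 28.1 and 60.1 times, and Nos2 and Lcn2 rose with either cytokine. Saa1 and Saa3 were called with IL-1 and Pigr with IL-17A, and none of these 3 was called between the cytokines. With IL-1, Duox2 counted 886, 814 and 862 in controls and 27608, 12032 and 11281 in treated libraries. Duoxa2 counted 169, 64.8 and 67.8 against 6520.2, 1588 and 1638. IL-1 replicate 1, a male library, was the highest for both genes. The log2 differences were 4.18 ± 0.32 and 4.81 ± 0.59 (limma adjusted p = 0.001978 and 0.002949).

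With IL-17A, Duox2 counted 23228, 30365 and 32399 and Duoxa2 5110.4, 4944 and 6522. The treated libraries lay close together. The log2 differences were 5.06 ± 0.17 and 5.91 ± 0.38 (limma adjusted p = 0.0001504 and 0.003931), and all 3 IL-17A libraries were male against 1 of the 3 controls. A sex block thus sets the IL-17A libraries against the 1 male control alone, a library also labelled 12 h replicate 2. Its own spread cannot be told apart from the effect of IL-17A.

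Nos2 counted 71.0, 362 and 405 in the 72 h controls of the IL-1 table. It counted 5624, 4927 and 2188 with IL-1 and 4784, 5776 and 5629 with IL-17A. Both groups lay above every control, at log2 differences of 4.16 ± 0.66 and 4.62 ± 0.62 (limma adjusted p = 0.004386 and 0.02648). Lcn2 had 1 read over the controls and 297 reads with IL-1, normalized counts of 125, 114 and 86.7 (ratio 363, counting interval 64.7 to 14400). With IL-17A it had 187 reads, at 58.2, 90.3 and 49.1 (ratio 229, interval 40.6 to 9090). Both were called (limma adjusted p = 0.001978 and 0.01708), though the level remained low in organoids, at no more than 6.74 CPM.

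Saa1, at 134, 137 and 148 in controls, stood at 1781, 2205 and 7836 with IL-1, a log2 difference of 4.48 ± 0.50 (limma adjusted p = 0.002642). With IL-17A it stood at 1501, 137 and 13207. IL-17A replicate 2 thus lay at the level of the controls while replicate 3 was the highest of all, and the difference of 3.32 ± 1.44 did not pass (adjusted p = 0.136). Saa2 followed the same libraries at low counts, 20 reads with IL-1 and 23 with IL-17A against 2 in the controls, and was under the filter. Its ratios were 12.2 (counting interval 2.97 to 108) and 14.1 (3.48 to 123).

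Saa3 was at 8.87, 6.67 and 0.848 in controls and at 31.3, 115 and 118 with IL-1 (3.88 ± 0.80, limma adjusted p = 0.009108). With IL-17A it was at 63.8, 19.8 and 135, a difference of 3.45 ± 0.91 that missed the threshold (adjusted p = 0.05242). Replicate 2 was again the lowest of the IL-17A libraries. Reg3g, with a row only in the IL-17A table, was at 0, 26.4 and 1.26 with IL-17A and 3.54, 0 and 0 in controls, under the filter, and its highest value came from that same replicate 2.

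Pigr counted 59044, 64159 and 62369 in controls, 120395, 88057 and 99074 with IL-1 and 132046, 121569 and 143569 with IL-17A. Every treated library lay above every control. The log2 difference of 0.72 ± 0.23 with IL-1 was under the fold threshold (limma adjusted p = 0.04227), and that of 1.10 ± 0.24 with IL-17A was called (adjusted p = 0.04372).

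Of the 7 members tested with IL-1 at 72 h, 6 were called higher, and 10.9% of all 13023 genes were called higher. With IL-17A 5 of 7 were called higher, against 5.02% of 13073 genes. Treated libraries lay above every control for 7 of 7 and 6 of 7 members, against 27% and 21.7% of all genes. The member medians were 4.18 and 4.62, against 0 and -0.01 over all genes. These counts and medians include Lcn2 and Saa3, which had control means under 10 in both tables and passed the filter only through the treated libraries. Leaving out any 1 library kept 6 members called with IL-1. With IL-17A it left 1 without IL-17A replicate 1, 2 without control replicate 2 or control replicate 4, 3 without IL-17A replicate 3 and 7 without IL-17A replicate 2, and Duox2 was the member called in every one. Averaging near-identical libraries, here control replicates 2 and 4, left 2 with IL-17A. With sex as a block 3 were called with IL-17A, and Lcn2 and Pigr did not pass (adjusted p = 0.1732 and 0.2098).

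Marker sums moved with the 72 h response: the 8 epithelial markers summed to 138300 to 160700 in controls and 255400 to 275900 with IL-1, with 1 of 8 called higher, and to 197300 to 281400 with IL-17A, with 0 of 8 called. Goblet cell markers summed to 107700 to 116900 in controls and spread from 47210 to 182200 with IL-1. Of the neutrophil list only Ly6g had a row, rising from 2012 to 2259 to 8180 to 13520, and Ptprc, which marks all leukocytes, was at no more than 0.58 CPM in any organoid library. Macrophage markers, 6 of 11 with a row, summed to 786.8 to 1200.0 in controls and 1704 to 4659 with IL-1, with 1 of 4 tested called. With IL-17A Ly6g rose to 3990.0 to 15940.0 from 2008 to 2254, and macrophage markers, 5 of 11 with a row, summed to 1866 to 4610.0 against 744.4 to 1197, with 1 of 4 tested called. Stromal markers, 3 of 8 with a row, summed to 195.3 to 1127 with IL-1 against 123.8 to 223.5, and plasma cell markers, 2 of 7 with a row, to 9383 to 13180.0 against 3863 to 5815, each with 1 of 1 tested called. With IL-17A these sums were 169.4 to 1137 against 122.2 to 219.5 and 6290.0 to 12950.0 against 3856 to 5803, with 0 of 1 called in each. Their part in the result was not tested.

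The effect of IL-17A on Duox2 was larger at 72 h than at 12 h by 1.66 ± 0.18 on the log2 scale (limma adjusted p = 0.009517), and that of IL-1 on Lcn2 by 2.14 ± 0.66 (adjusted p = 0.03503). On a scale common to both times, Duox2 with IL-17A went from 9676, 9594 and 9256 at 12 h to 24300.0, 31790.0 and 33820.0 at 72 h, with no overlap. Lcn2 with IL-1 went from 30.1, 20.2 and 19.9 to 129, 116 and 89.3. Nos2 with IL-1 overlapped between times: 4964, 4128 and 3640.0 at 12 h stood beside 5804, 5038 and 2254 at 72 h (-0.47 ± 0.99, adjusted p = 0.7532), while Nos2 with IL-17A went from 1839, 3399 and 2974 to 5006, 6047 and 5876 (0.67 ± 0.96, adjusted p = 0.6581).

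Of 6 members tested between times with IL-1, 1 was called, against 17.4% of 12955 genes. With IL-17A 1 of 5 was called, against 0.0384% of 13022 genes. Lcn2 with IL-1 and Saa3 with either cytokine passed the filter only through the cytokine libraries. These fits treat the controls of both times as separate although 2 of 3 are the same libraries. The third 72 h control, replicate 2, was close to 12 h control replicate 4. Comparing the cytokine libraries of both times directly with each distinct control used once, an alternative chosen after seeing the data, called 2 members with IL-1 (Duox2 1.16 and Lcn2 2.21, limma adjusted p = 0.01173 and 0.003173) and 3 with IL-17A (Duox2 1.64, Duoxa2 1.78 and Saa3 3.36, adjusted p = 0.001428, 0.03396 and 0.02518). Lcn2 with IL-1 was lost by edgeR (adjusted p = 0.442) and DESeq2 (0.336). It was also lost with near-identical libraries averaged (0.1608) and without any one of 9 of the 12 libraries, at adjusted p of 0.05316 to 0.08989. Duox2 with IL-17A was lost with such averaging (0.3522) and without any one of 6 of the 12, at 0.06027 to 0.06785. With IL-1, 2 members were called without IL-1 12 h replicate 1, and with IL-17A 3 were called without IL-17A 72 h replicate 2.

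No member was called between IL-1 and IL-17A. At 12 h replicate 1 of IL-1 and replicate 1 of IL-17A were close to one library, with a chi-square per gene of 4.65. Scaled together, the difference of IL-1 from IL-17A in Duox2 was -0.39 ± 0.16 on the log2 scale at 12 h and -0.87 ± 0.31 at 72 h. Saa3 differed by 2.12 ± 0.83 at 12 h and 0.43 ± 0.88 at 72 h and was higher with IL-1. At 12 h 0 of 5 members and at 72 h 0 of 7 were called by limma (0% of 12951 and 0.0154% of 12997 genes called), with adjusted p of 0.9996 to 0.9998. At an unadjusted p under 0.05 these counts were 3 and 1, and edgeR and DESeq2 called 0 at each time.

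Genes of the same pathways were read from lists chosen with earlier results of these data known. Of 16 tested genes of IL-1 and IL-17 receptors and signaling, 2 rose with IL-1 at 12 h, Nfkbiz (IκBζ, 1.42 ± 0.13 on the log2 scale) and Nfkbia, the inhibitor IκBα. With IL-17A 2 rose, Zc3h12a (regnase-1, an RNase that limits these responses, 2.62 ± 0.21) and Nfkbiz (2.34 ± 0.11). At 72 h 7 of 16 rose with IL-1 and 6 of 16 with IL-17A, Zc3h12a by 2.40 and 3.18. Of 4 tested acute phase and iron-binding genes, 1 rose with IL-1 at 12 h, the complement gene C3 (3.80 ± 0.38). At 72 h 4 of 4 rose with IL-1 and 5 of 5 with IL-17A, C3 by 4.71 and 3.39 and the iron reductase Steap4 by 3.81 and 3.76.

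Of the oxidase partners, at 72 h Cyba (the p22phox subunit) rose by 1.60 with IL-1 and 1.61 with IL-17A and Noxo1 by 1.55 with IL-1. Of 14 antimicrobial genes tested, 4 rose and 3 fell with IL-1, and 3 rose and 0 fell with IL-17A. Those that rose with either include Ltf (lactoferrin, 3.69 and 3.50) and Dmbt1 (2.72 and 2.92). Those that fell with IL-1 were Retnlb (fell by 4.88), Reg4 (by 3.23) and Ang4 (by 2.68), products of goblet or other secretory cells. Of 5 nitric oxide and arginine genes 1 rose with each cytokine, Gch1 (1.88 and 1.72), which makes the cofactor of Nos2. Of 2 tested genes listed for immunoglobulin transport 1 rose with each cytokine, Fcgrt with IL-1 (1.43) and Fcamr with IL-17A (2.30). Fcgrt is a receptor for IgG and not for IgA. Beside these 72 h counts, 23% of all genes tested were called with IL-1 and 7.94% with IL-17A.

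Across the 16 distinct organoid libraries the genes most like Duox2 on log2(scaled reads + 1) were Cap2 (r = 0.98), Cebpd (0.974), Nfkbiz (0.968), Birc3 (0.955) and Zc3h12a (0.95), among 12937 genes with a median r of 0. Of the members Duoxa2 stood at 0.969, Pigr at 0.931, Nos2 at 0.914 and Saa3 at 0.649. The points share treatment groups and cultures, so these values describe the libraries.

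In Muc2-mCherry+ goblet cells from mice with a deleted stroma, Saa1 was the member with the clearest difference. It counted 277 and 381 in the GWTM2 libraries of the proximal colon and 2115 and 4166 in GS4M2 cells, a log2 difference of 3.19 ± 0.32 (SE, n = 2 a group, limma adjusted p = 0.03142). In GA3M2 cells it counted 3197 and 6846 against 295 and 403 (3.76 ± 0.38), which missed the threshold (adjusted p = 0.0506). In the distal colon Saa1 counted 4323 and 10975 (GS4M2) against 1386 and 1241, and 2850.0 and 5649.5 (GA3M2) against 1326 and 1197. Knockout libraries lay above both controls in all 4 tables, with distal differences of 2.39 ± 0.44 and 1.67 ± 0.33 that did not pass (adjusted p = 0.3699 and 0.306). The deposited column names set the direction in the GS4M2 proximal table. The study names the groups of that comparison the other way round elsewhere, but the GWTM2 columns there hold the same reads as the GWTM2 columns of the GA3M2 table.

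In distal cells Duox2, Duoxa2, Nos2, Reg3b and Reg3g differed widely between the female and the male control. Duoxa2 in the GA3M2 proximal table counted 595 in the female GWTM2 replicate 1, 138 in the male replicate 2 and 1560.1 and 1147 in the knockouts, all male. In the distal colon it counted 1403 in the female control, 90.7 in the male control and 1152 and 672 in GA3M2 cells. The knockout values thus lay between the 2 distal controls. Nos2 was spread in the same way, at 660 in the female and 10.9 in the male distal control against 302 and 149 in GA3M2 and, in the other table, 39.8 and 132 in GS4M2 cells.

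Reg3b and Reg3g are the antibacterial lectins. Distal Reg3b was at 5107 in the female and 31.7 in the male control, with 15720 and 4918 in GA3M2 cells. Reg3g was at 2460.4 and 45.9 against 4404 and 1908. In the GS4M2 distal table Reg3b was at 687 and 1717 and Reg3g at 311 and 983, between the controls. In the proximal colon the groups did not overlap: Reg3b counted 13608 and 1684 in controls and 41495 and 76375 in GA3M2 cells (3.56 ± 0.92, limma adjusted p = 0.2217), and 12781 and 1593 against 21614 and 18640 in GS4M2 cells (2.15 ± 0.87, adjusted p = 0.2919).

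Lcn2 had 1 read in the 2 proximal controls and 155 in GA3M2 cells, at 65.4 and 83.0 (ratio 147, counting interval 26.0 to 5840), with a limma adjusted p of 0.06627. It had no row in the GS4M2 proximal table. In the distal colon the controls were at 20.2 and 0 and GA3M2 cells at 17.6 and 33.5. Saa3 stood at 26.5 and 35.4 against 221 and 1043 in proximal GA3M2 cells, 24.9 and 33.5 against 95.7 and 173 in proximal GS4M2 cells and 0.96 and 4.37 against 20.6 and 47.9 in distal GA3M2 cells. The Saa3 groups lay apart in all 3 tables in which it has a row, and none passed (adjusted p of 0.08912 to 0.3204). Saa2, absent from both GS4M2 tables, had 25 reads in proximal GA3M2 cells against 2 in controls (ratio 11.9, interval 2.96 to 103), under the filter.

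Pigr differed little, as did Duox2 in the proximal colon. Duox2 counted 9005 and 5872 in proximal controls against 10785 and 12101 in GS4M2 cells (0.65 ± 0.21, limma adjusted p = 0.2125), and 9588 and 6208 against 11858.5 and 6270.3 in GA3M2 cells (0.16 ± 0.37). The distal controls of Duox2 lay far apart, at 2539 and 12924 in the GA3M2 table, with the knockouts between them at 6048 and 8463. Its distal log2 differences were 0.24 ± 0.76 (GS4M2) and 0.32 ± 0.73 (GA3M2), so their direction was not determined. Pigr had log2 differences of -0.65 to -0.31 over the 4 tables, with limma adjusted p of 0.446 to 0.781. In the distal tables its counts lay under both controls, at 68148 and 74399 in GS4M2 cells against 121140.2 and 102886 and at 93168 and 78004 in GA3M2 cells against 115890.2 and 99309, a pattern of 22.6% and 22.2% of all genes.

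Of 8 members tested in GS4M2 proximal cells 1 was called higher, against 0.174% of 13246 genes. In GS4M2 distal cells 0 of 8 were called by limma (0% of 13078 genes), 2 at an unadjusted p under 0.05, 0 by edgeR and 1 by DESeq2. In GA3M2 proximal cells 0 of 9 were called (0.0375% of 13346 genes called higher), 7 at an unadjusted p under 0.05, 0 by edgeR and 4 by DESeq2. In GA3M2 distal cells 0 of 9 were called (0% of 13082 genes), 2 at an unadjusted p under 0.05, 0 by edgeR and 1 by DESeq2. Knockout libraries lay above both controls for 7 of 8, 1 of 8, 7 of 9 and 2 of 9 members in this order, a pattern of 25%, 23.1%, 26% and 22.1% of all genes. Lcn2 in proximal and Saa3 in distal GA3M2 cells are counted here, and they passed the filter only through the knockout libraries.

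All 4 GWTM2 tables have 1 female control and knockouts that are male, so sex was set as a block after seeing the data, which compares the knockouts with the male control alone. Then 5 members were called in GS4M2 proximal, 4 in GS4M2 distal, 5 in GA3M2 proximal and 7 in GA3M2 distal cells, Duoxa2 in each, at log2 differences of 3.08, 3.09, 3.27 and 3.26. With only that male control in a segment, its own spread cannot be told apart from the effect of the knockout. Leaving out libraries gave like counts: without GWTM2 replicate 1, 5, 4, 6 and 7 members were called in the same order, and without GWTM2 replicate 2, 0, 0, 2 and 3, while GA3M2 proximal had 3 without GA3M2 replicate 1. Without the male distal control the difference of Nos2 in GA3M2 cells was -1.63 (limma adjusted p = 0.005663).

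Markers of the sorted cells shifted as well. Goblet cell markers summed to 192100 to 247700 in proximal GA3M2 cells against 560100 to 621400, and to 249500 to 420200 against 608400 to 1103000 in the distal colon, with 1 of 8 and 0 of 8 called lower. In GS4M2 cells the sums were 601300 to 676400 against 526100 to 587800 (proximal) and 709600 to 863100 within the range of the distal controls. The neutrophil list, with 3 of its 10 genes in the GA3M2 tables and 0 called, had higher sums there, of 362 to 1574 against 6.85 to 19.2 (proximal) and 1256 to 2048 against 139 to 153 (distal), most of it Ly6g. S100a8 and S100a9 were at 0 in the proximal controls, and S100a8 was at 15.1 and 10.2 in GA3M2 cells. Lyz2, in both the antimicrobial and the macrophage list, was at 0 in the proximal controls and rose by 8.61 ± 0.52 (limma adjusted p = 0.01817). In proximal GS4M2 cells Ly6g alone had a row, at 97.8 to 227 against 6.48 to 18.03. Their part in the members' results was not tested. Steap4 rose in GS4M2 proximal cells (3.86 ± 0.31, adjusted p = 0.01766), the 1 listed pathway gene called there.

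**Figure D2:**
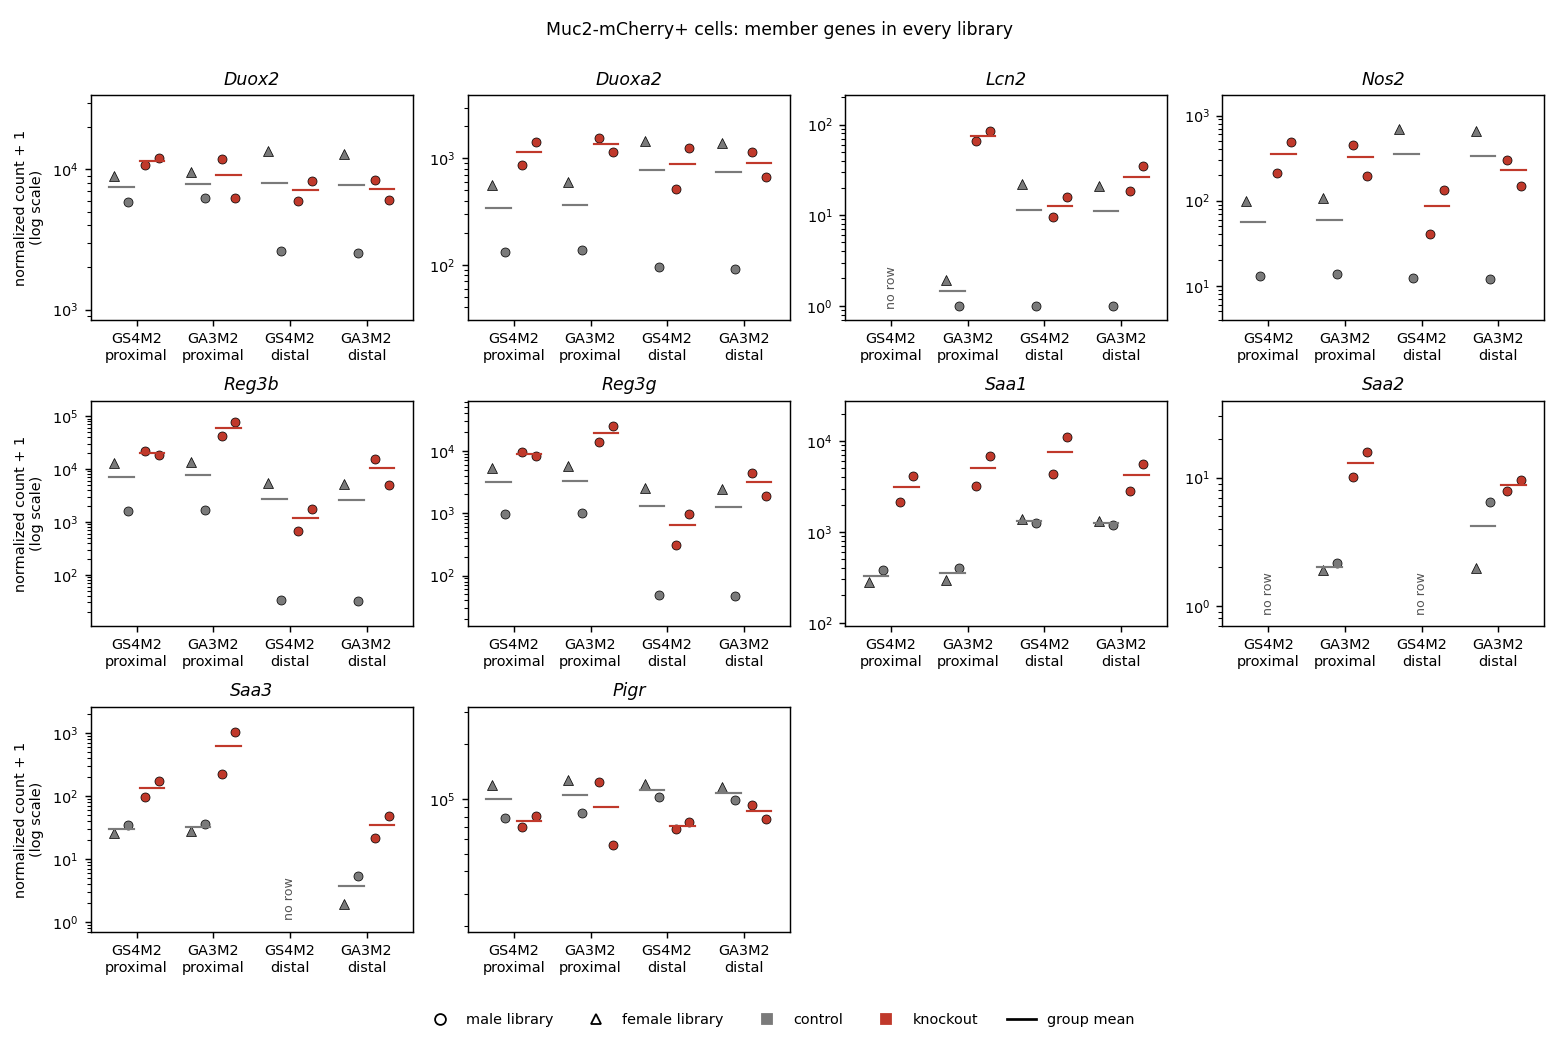
Normalized counts plus 1 on a log axis for the 10 genes in each Muc2-mCherry+ library, by knockout and segment, with a line at each group mean; grey marks controls and red knockouts, circles male and triangles female libraries. Saa1 knockouts lie above both controls in every panel position, whereas the female control exceeds the male control for Duoxa2, Nos2, Reg3b and Reg3g.

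In libraries of sorted Gli1-tdTomato+ stromal cells these genes, other than Saa3 and Pigr, were low in controls. Saa3 reached 1265 in a distal control and Pigr 2346.5 in a proximal one. The members were higher with loss of Smad4. Reads of epithelial markers were higher there too, as given below. In the distal colon all 10 members were called higher in GS4T cells, at log2 differences from 2.05 (Pigr) to 7.27 (Lcn2). Duoxa2, Nos2, Reg3g and Saa2 had control means under 10 there and passed the filter only through the knockout libraries. Lcn2 counted 40.1 and 8.71 in GWTT cells and 2197 and 4329 in GS4T cells (7.27 ± 0.69, limma adjusted p = 0.002657). Saa3 counted 1265 and 164 against 22500 and 15931 (5.37 ± 0.88, adjusted p = 0.0111). The groups lay far apart for both, although the controls differed from each other by a larger ratio than the knockouts did.

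Duoxa2 had 0 reads in both distal controls and 227 in GS4T cells, normalized counts of 81.5 and 159, at least 78.5-fold higher against a floor of 3 reads over the group. Duox2 counted 19.6 and 25.2 against 419 and 901 (4.73 ± 0.42, limma adjusted p = 0.002091). Nos2 counted 0 and 4.84 against 197 and 174 (6.27 ± 0.90, adjusted p = 0.007799). The oxidase, its partner and the nitric oxide synthase were thus close to undetected in the controls and clear in both knockouts.

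Reg3b counted 10.8 and 12.6 against 199 and 1447, and Reg3g, with 2 reads in the controls, 50.5 and 187 (ratio 112, counting interval 30.7 to 931). GS4T replicate 2 was the higher for both, as it was for Lcn2, Duox2 and Duoxa2. Saa1 counted 28.4 and 19.4 against 553 and 584 (4.54 ± 0.29, limma adjusted p = 0.001127). Saa2, with 0 reads in the controls and 49 in GS4T cells, was at least 17.0-fold higher. Pigr counted 325 and 682 against 1185 and 3232 (2.05 ± 0.54, adjusted p = 0.04276).

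In the proximal colon 5 of 9 members were called higher in GS4T cells: Duox2 (12.4 and 53.3 against 593 and 792), Duoxa2 (0 and 4.10 against 73.8 and 104), Lcn2 (8.27 and 9.22 against 620 and 526), Nos2 (6.20 and 1.02 against 85.8 and 54.8) and Saa3 (119 and 215 against 7901 and 3199.6). Their log2 differences were 4.67, 5.29, 5.88, 4.19 and 4.97, with limma adjusted p of 0.003523 to 0.03115. Reg3b had the largest fitted difference and did not pass, since GWTT replicate 1 had 0 and replicate 2 had 112, against 3856 and 5383 (8.75 ± 2.14, adjusted p = 0.05315). Pigr behaved alike, at 30.0 and 2346.5 in controls against 2347 and 5325 (3.71 ± 1.98, adjusted p = 0.2507), and Saa2 had no row. Saa1 counted 4.14 and 131 against 292 and 160.5 (3.06 ± 1.51, adjusted p = 0.2204), and Reg3g 0 and 49.2 against 851 and 1223 (7.17 ± 1.79, adjusted p = 0.05549). GWTT replicate 2 was the higher proximal control for Duox2, Reg3b, Reg3g, Saa1 and Pigr.

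Loss of Alk3 gave differences in the same direction with fewer calls. In the proximal colon Lcn2 counted 8.70 and 9.70 in GWTT cells and 366 and 686 in GA3T cells (5.62 ± 0.42, limma adjusted p = 0.0489). Saa3 counted 125 and 226 against 2578 and 5949.5 (4.53 ± 0.48, adjusted p = 0.05735). In the distal colon Duox2 counted 22.3 and 28.6 against 248 and 273 (3.31 ± 0.30, adjusted p = 0.06685), Duoxa2 0 and 0 against 42.8 and 70.2 (at least 32.6-fold higher), and Saa3 1444 and 186 against 1260.4 and 2764, with overlap. Reg3g had 2 reads against 110 (ratio 43.7, counting interval 11.8 to 365). Saa1 counted 32.4 and 22.0 in distal controls against 715 and 214 (3.82 ± 0.61, adjusted p = 0.1027), Nos2 0 and 5.51 against 10.5 and 39.3, and Pigr 370.4 and 777 against 3030.3 and 1272.

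In proximal GA3T cells the wide gap between controls returned. Duox2 counted 13.1 and 56.0 against 78.2 and 349.6 (2.56 ± 0.99, limma adjusted p = 0.2305), and Reg3b 0 and 117 against 543 and 1124 (6.17 ± 2.23, adjusted p = 0.2119). Pigr at 31.6 and 2467 against 1363 and 3024 and Saa1 at 4.35 and 138 against 115 and 205 overlapped. Saa2 had no row in either GA3T table.

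Of 10 members tested in GS4T distal cells 10 were called higher, against 7.88% of 15262 genes, and of 9 in GS4T proximal cells 5, against 5.25% of 15319 genes. Knockout libraries lay above both controls for 10 of 10 and 9 of 9, against 34.4% and 34% of all genes, and for 7 of 9 in GA3T proximal and 8 of 9 in GA3T distal cells, against 28.8% and 27.5%. In GA3T proximal cells it was 1 of 9, against 0.345% of 15346 genes, and in GA3T distal cells 0 of 9 by limma (0% of 15414 genes called), 7 at an unadjusted p under 0.05, 0 by edgeR and 5 by DESeq2. The member medians were 5.39, 4.97, 3.85 and 3.08, against 0 to 0.02 over all genes. These counts and medians include members that passed the filter only through the knockout libraries. They were Duoxa2 and Nos2 in every comparison, Lcn2 in proximal cells, Reg3g in distal cells and Saa2 in distal GS4T cells. In GS4T distal cells 7 to 9 members were called when 1 library was left out. In GS4T proximal cells 0 were called without GS4T replicate 1, 2 without GS4T replicate 2 and 9 without GWTT replicate 2. In GA3T proximal cells 0 were called without GWTT replicate 1 or GA3T replicate 2, 2 without GA3T replicate 1 and 4 without GWTT replicate 2, and in GA3T distal cells 2 without GA3T replicate 1.

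Whether the response differed between segments was tested as an interaction. None of the members was called by limma for GS4T (0 of 9, 0.189% of 15314 genes called), GA3T (0 of 9), GS4M2 (0 of 7) or GA3M2 (0 of 9), the last 3 with 0% of genes called. At an unadjusted p under 0.05 there were 0, 1, 0 and 1, edgeR called 0 in each and DESeq2 1 in GA3T only. Lcn2 in GA3T cells was 3.23 ± 0.99 further up in proximal than distal colon (limma adjusted p = 0.5829).

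The sorted Gli1-tdTomato+ cells held reads of other cell types, and these moved with the members. Stromal markers were high throughout, 8 of 8 with a row, at sums of 661600 to 1112000. Epithelial markers summed to 1033 to 3232 in distal GWTT cells and 12500 to 25610 in GS4T cells, with 8 of 8 called higher. Neutrophil markers summed to 70.7 to 114 against 2981 to 4697 there, with 8 of 8 tested called higher and Cxcr2 at 0 in the controls, and macrophage markers to 11860 to 13530 against 23350 to 41120, with 6 of 11 higher. Plasma cell markers summed to 251600 to 333900 against 23420 to 85280, with 6 of 7 lower.

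In the proximal colon GWTT replicate 1 had 51 reads of Epcam and 59 of Muc2, against 1035 and 2608 in replicate 2, so that the proximal controls differed widely in epithelial reads. Epithelial markers summed to 271 to 9429 in GWTT cells, 22780 to 30040 in GS4T cells (1 of 8 called higher) and, in their own table, 10110 to 15600 in GA3T cells. Macrophage markers rose in GS4T cells (8 of 11 called) and neutrophil markers too (5 of 6), with Ly6g at 0 in the controls. GA3T cells had no marker called in either segment, with epithelial medians of 3.01 and 2.67 on the log2 scale. The part of these cells in the members' results was not tested, and in bulk samples fewer cells of a type and less RNA per cell cannot be told apart. Gli1 itself was at 42 and 24 reads in GA3T and GS4T proximal replicate 2, against 621 to 1671 in the other Gli1-tdTomato+ libraries.

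Listed pathway genes rose in GS4T cells alongside, where 14% of all genes were called in distal and 9.61% in proximal cells. In distal cells 12 of 19 antimicrobial genes were called higher and 1 lower, S100a8 by 6.95 and S100a9 by 6.67, the subunits of calprotectin, among the higher, and 5 of 8 acute phase genes, haptoglobin (Hp) by 7.58. In proximal cells Hp rose by 5.92, and 3 of 8 acute phase and 4 of 15 antimicrobial genes were called. Of the oxidase list, Noxa1 (3.54) and Nox1 (3.21), epithelial oxidase genes, rose in distal cells. Arg1 rose by 4.27 and 4.19, and Arg2 by 4.28 in distal cells. Il1r1, the IL-1 receptor, rose by 1.66 in distal and 1.58 in proximal GS4T cells and by 1.30 in proximal GA3T cells (limma adjusted p = 0.04964), and Il1rn, the receptor antagonist, by 4.13 and 3.70. Jchain fell by 4.20 and by 1.83 and Igha by 3.19 in distal GS4T cells, beside the fall in plasma cell markers.

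**Figure D3:**
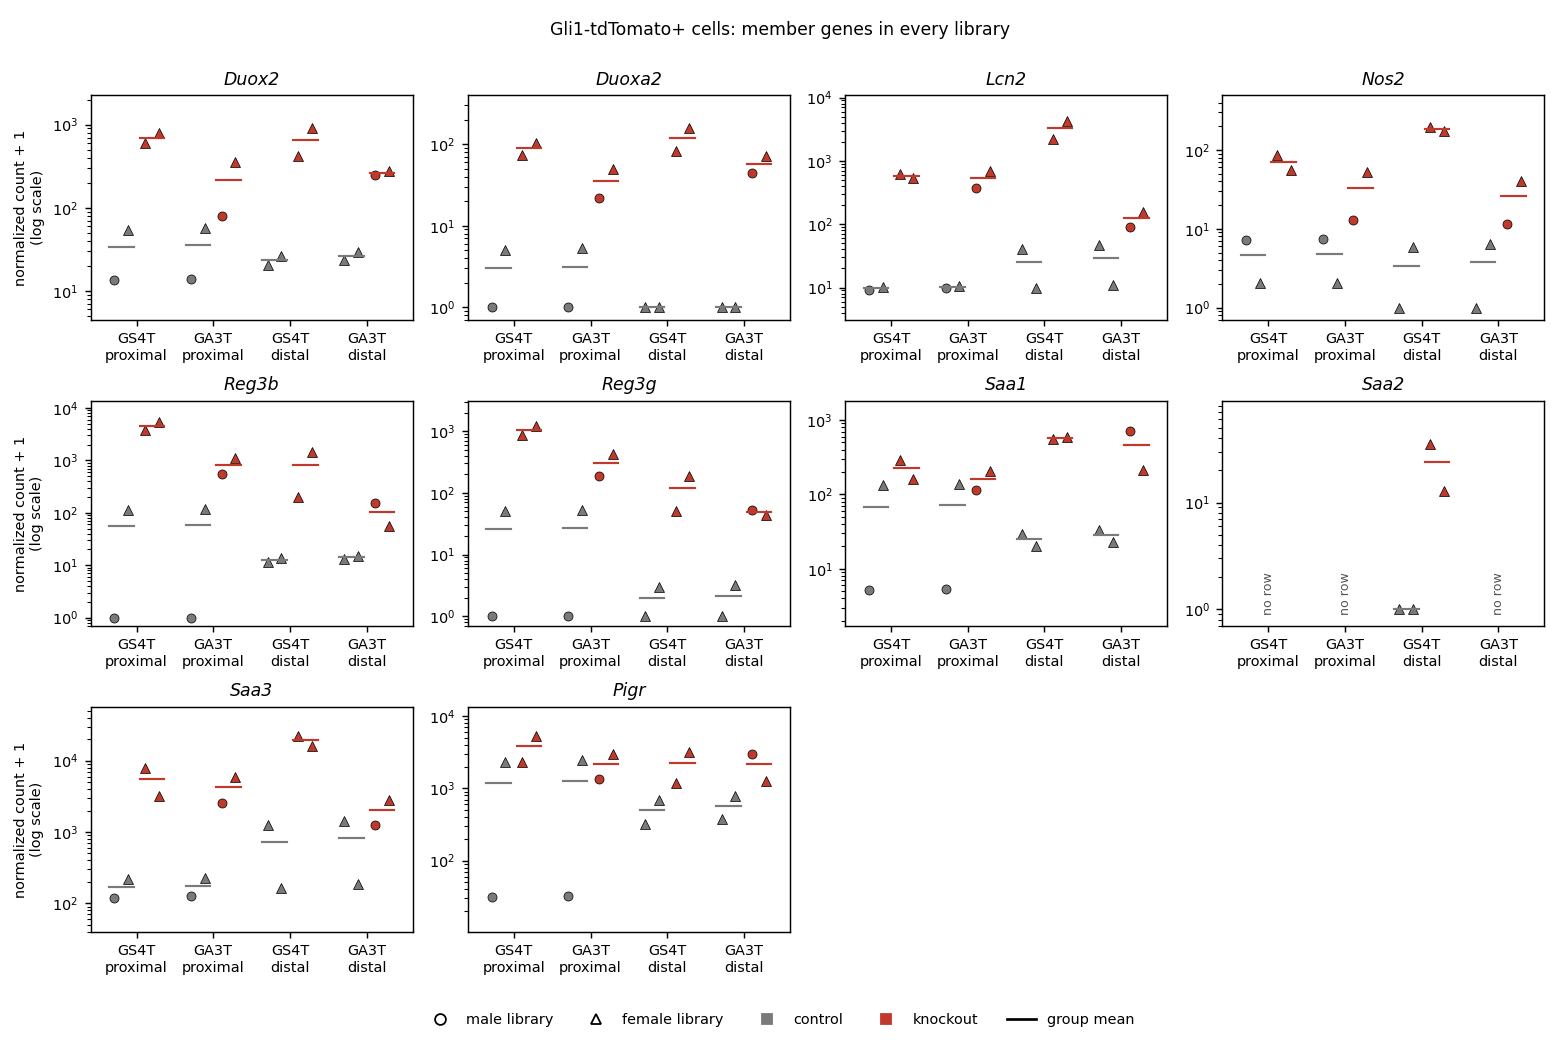
Normalized counts plus 1 on a log axis for the 10 genes in each Gli1-tdTomato+ library, by knockout and segment, with a line at each group mean; grey marks controls and red knockouts, circles male and triangles female libraries. GS4T libraries lie above both controls for every gene shown, and the proximal controls split widely for Reg3b, Reg3g, Saa1 and Pigr.

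**Figure D4:**
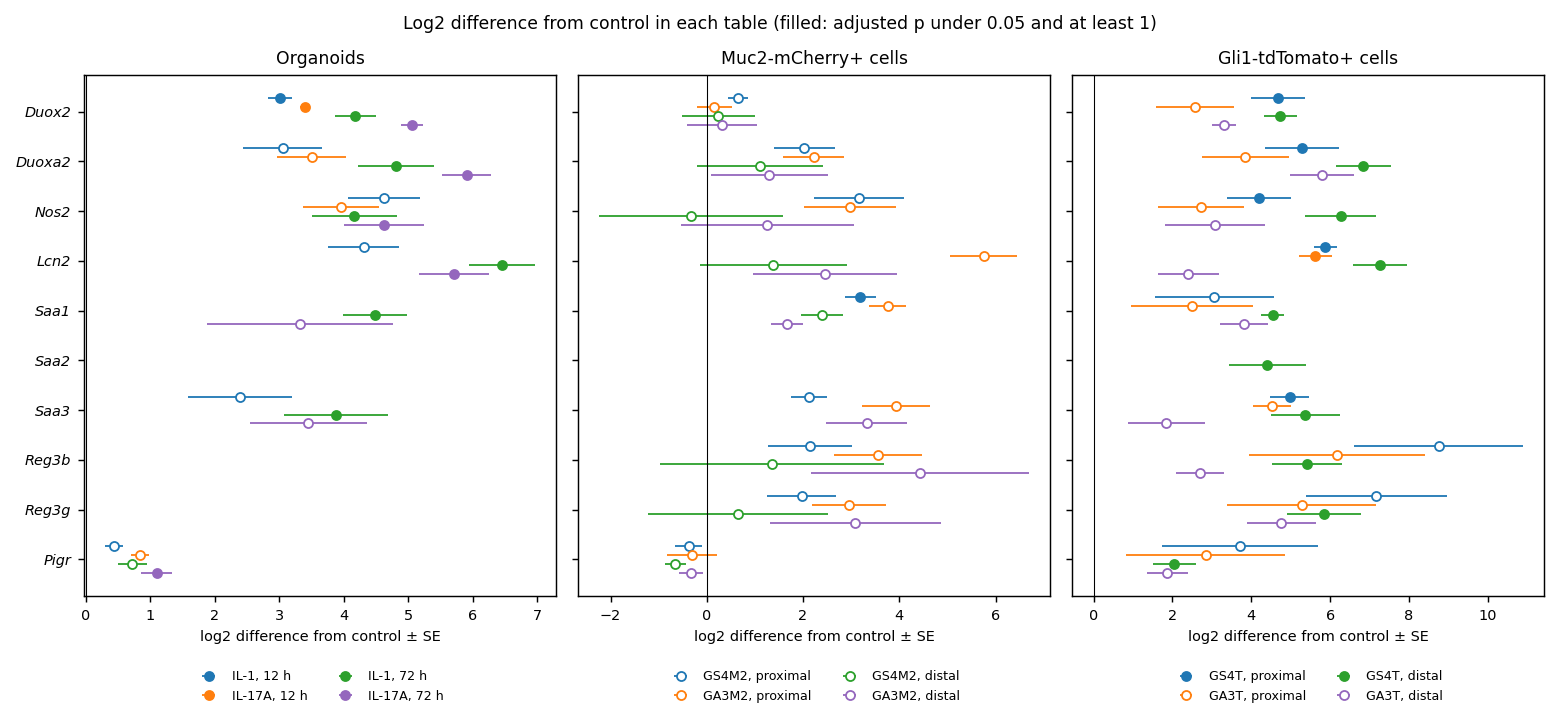
Log2 differences from control with their SE for each gene tested in organoids, Muc2-mCherry+ cells and Gli1-tdTomato+ cells; filled points passed the test. Organoid calls lie between 1.10 and 6.45, 1 point is filled in Muc2-mCherry+ cells (Saa1, GS4M2 proximal), and all 10 genes are filled in distal GS4T cells.

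Organoids and sorted cells were set side by side as CPM. Since each table was normalized alone, levels across tables are described and not tested. Duox2 was at 54.0 to 1938 CPM in organoids and 145 to 763 in Muc2-mCherry+ cells, against 0.734 to 53.9 in Gli1-tdTomato+ cells. Pigr was at 3909 to 7759 and 2921 to 7045, against 1.77 to 311. These 2 genes thus had their highest levels in epithelial samples.

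Lcn2 and Saa3 showed the opposite order. Lcn2 reached 259 CPM in Gli1-tdTomato+ cells and no more than 4.33 in Muc2-mCherry+ cells and 6.74 in organoids. Saa3 reached 1372 against 54.4 and 6.80. Reg3b reached 3984 in Muc2-mCherry+ and 315 in Gli1-tdTomato+ cells. Nos2 was highest in organoids, at up to 369, against 38.9 and 12.0.

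Set against Epcam, an epithelial adhesion protein used here as a yardstick of epithelial reads, Duox2 was at 6.33 to 26.8 reads per 100 of Epcam in the 8 knockout Gli1-tdTomato+ libraries and 10.6 to 37.1 in the 8 knockout Muc2-mCherry+ libraries. Duoxa2 was at 1.71 to 5.52 and 1.77 to 4.33, Reg3b at 4.27 to 142 and 2.54 to 130, and Pigr at 62.8 to 159 and 94.96 to 311. The ranges of these 4 genes overlapped between cell types. Lcn2 was at 3.59 to 129 against 0.0316 to 0.164 and Saa3 at 50.2 to 1191 against 0.0522 to 1.77, with no overlap, and Nos2 at 0.419 to 10.4 against 0.147 to 1.51. In the stromal controls, too, Lcn2 at 0.870 to 27.3 and Saa3 at 20.3 to 863 per 100 Epcam reads lay above every goblet cell library. On this scale stromal controls and knockouts overlapped for Duox2 (5.02 to 23.5 in controls), Pigr (56.9 to 221) and Saa1 (4.59 to 19.3 against 4.10 to 29.3). Nos2, Reg3b, Reg3g, Lcn2 and Saa3 overlapped too. Duoxa2, at 0 to 0.387 in controls, and Saa2, at 0, were higher in every knockout library with a row. The controls held only 4 Duoxa2 reads in proximal and 0 in distal colon, and 0 Saa2 reads. Epcam was as low as 3.12 CPM among these libraries, so single reads could change this separation. How the members' reads divide between stromal, epithelial and myeloid cells of a library was not tested.

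**Figure D5:**
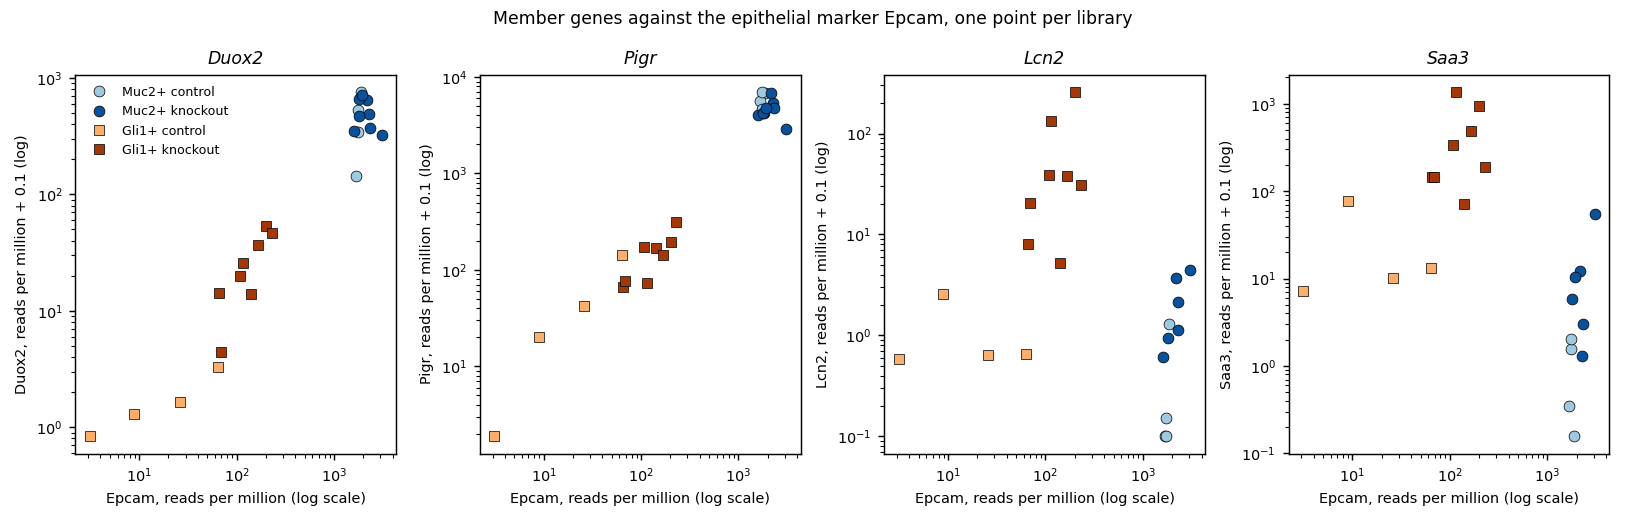
Levels in CPM of Duox2, Pigr, Lcn2 and Saa3 (plus 0.1) against Epcam in each sorted library, both axes logarithmic; light colors mark controls and dark colors knockouts, circles Muc2-mCherry+ and squares Gli1-tdTomato+ cells. Duox2 and Pigr are high where Epcam is high, while Lcn2 and Saa3 are highest in knockout Gli1-tdTomato+ cells, at up to 259 and 1372.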

How the data were processed

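RNA-seq of 42 samples was taken as 12 tables, each deposited by the authors as a normalized signal per gene: gene counts divided by 1 size factor per library (DESeq2 1.28.1), from reads that mapped uniquely to mm10 (STAR 2.5.3), per the methods and processing notes. The counting program, annotation and strand setting are not given in the sources used here, so reads of a gene and an antisense partner cannot be told apart. Every value was a whole multiple of 1 step per column (100% within 0.1), so whole reads were recovered for depth, edgeR 4.0.16 and DESeq2 1.42.0. The GS4M2 tables hold 4 rows without a gene name with up to 28.2% of the values, which were left out.

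Each table was fitted alone with limma 3.58.1 (R 4.3.3, trend) on log2(normalized count + 1), genes with a mean of at least 10 and Benjamini-Hochberg adjustment over all of them. The mean was taken over the libraries of both groups, so a gene low in the controls was tested only where the other group was high. A fold change on this scale understates the change of low genes. Times and segments were compared as interactions over 2 tables, and IL-1 with IL-17A after joint scaling of recovered reads. Groups came from the labels. No 2 libraries of a group agreed within sampling noise, so none were merged, although 4 pairs of organoid libraries were close to it. Pairs of like treatment had a chi-square per gene of 3.03 to 3.32. The pair at 4.65 crossed treatments, IL-1 replicate 1 and IL-17A replicate 1 at 12 h. Replicate numbers do not pair the samples by any label.

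The text names all 10 members, at most 3 rises and 3 falls per list and comparison among called genes, and the 5 genes most like Duox2. The members and lists were chosen with earlier results of these data known. The fits were tested on simulated data with 200 changed genes per comparison. Alternatives were the pseudocount, the filter, upper-quartile rescaling, edgeR, DESeq2, a replicate block, leaving out each library and, chosen after seeing the data, sex as a block, averaging near-identical libraries and a direct comparison of times. Results for 1 listed gene are not reported here.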

Additional observations from a re-analysis of the deposited data

Results flagged for a closer look

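In a limma interaction test the effect of IL-1 on Lcn2 at 72 h exceeded that at 12 h by 2.14 on the log2 scale (adjusted p = 0.03503), with 3 of 3 libraries at 72 h above all 3 at 12 h. It was 1 of 6 members called, where 17.4% of all genes were called. Lcn2 passed the filter only through the cytokine libraries. The call was lost by edgeR (adjusted p = 0.442), by DESeq2 (0.336), with near-identical libraries averaged (0.1608) and without any one of 9 of the 12 libraries (0.05316 to 0.08989). For Duox2 with IL-17A the effect was larger at 72 h by 1.66 (adjusted p = 0.009517), again in 3 of 3 libraries. That call was lost with near-identical libraries averaged (0.3522) and without any one of 6 of the 12 libraries (0.06027 to 0.06785). Both rest on controls of which 2 of 3 are the same libraries at both times, and the third 72 h control was close to 12 h replicate 4.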

How the results depend on the processing

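Counts of called members moved with the test and the libraries kept. DESeq2 on recovered reads called 4 with IL-1 and 3 with IL-17A at 12 h, 2, 1, 4 and 1 in GS4M2 proximal, GS4M2 distal, GA3M2 proximal and GA3M2 distal cells, 4 and 5 in GA3T proximal and distal cells, 2 for IL-17A between times and 1 between GA3T segments. edgeR called 0 in GA3T proximal cells, as did a pseudocount of 0.1 and upper-quartile rescaling, while a pseudocount of 10 gave 2. In GA3M2 proximal cells a pseudocount of 10 gave 2 and no filter 1, and in GS4T proximal cells a mean of at least 50 gave 3. For IL-1 between times, a pseudocount of 0.1 and a mean of at least 50 gave 0.

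Replicate numbers share no stated batch. Deviations of same-numbered libraries correlated at 0.62 to 0.64 in the 12 h organoids, in pairs of like sex, and at -0.19 to 0.30 elsewhere. A replicate block gave 5 with IL-1 and 3 with IL-17A at 12 h, 5 and 2 at 72 h, 2 in GS4M2 proximal, 7 in GA3M2 proximal, 7 in GS4T proximal, 10 in GS4T distal, 2 in GA3T proximal and 2 in GA3T distal cells, 2 for each cytokine between times and 1 between cytokines at 12 h, and 0 elsewhere.

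Alternatives chosen after seeing the data were sex as a block, with 4 and 3 at 12 h, 3 with IL-17A at 72 h, 5, 4, 5 and 7 in the Muc2-mCherry+ tables in the order above, 2 and 3 in GA3T proximal and distal cells and 0 for IL-1 between times, averaging near-identical libraries, with 0 for IL-1 at 12 h, 2 for IL-17A at 72 h and 0 for either cytokine between times, and the direct comparison of times, with 2 and 3.

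Leaving out 1 library gave 0 to 2 (IL-1, 12 h), 1 to 1 (IL-17A, 12 h), 6 to 6 (IL-1, 72 h), 1 to 7 (IL-17A, 72 h), 0 to 5 (GS4M2 proximal), 0 to 4 (GS4M2 distal), 0 to 6 (GA3M2 proximal), 0 to 7 (GA3M2 distal), 0 to 9 (GS4T proximal), 7 to 9 (GS4T distal), 0 to 4 (GA3T proximal), 0 to 2 (GA3T distal), and 0 to 2 and 0 to 3 between times for IL-1 and IL-17A, with 0 to 0 for both comparisons of cytokines and all 4 of segments.

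Of the differences of single members 16 changed sign under at least 1 alternative, in 34 fits of which 20 left out 1 library, and none had been called. In GS4M2 distal cells edgeR and DESeq2 gave -0.18 for Duox2, -1.16 for Reg3b and -1.02 for Reg3g, and sex as a block 2.58 for Nos2. In GA3M2 distal cells they gave -0.09 for Duox2 and -0.58 and -0.57 for Nos2. Between times with IL-1, sex as a block gave 0.27 for Nos2. Between cytokines at 72 h edgeR and DESeq2 gave -0.31 and -0.33 for Saa1. With 1 library left out, the log2 differences that changed sign ranged as follows. For GS4M2 distal cells it was Duox2 -0.94 to 1.42, Duoxa2 -0.86 to 3.09, Lcn2 -0.85 to 1.74, Nos2 -3.23 to 2.58, Reg3b -2.30 to 5.01, Reg3g -2.22 to 3.51. For GA3M2 proximal cells it was Duox2 -0.30 to 0.62, Pigr -0.88 to 0.26. For GA3M2 distal cells it was Duox2 -0.85 to 1.49, Duoxa2 -0.67 to 3.26, Nos2 -1.63 to 4.16. For GA3T proximal cells it was Pigr -0.28 to 5.96. For IL-1 at 72 h against 12 h it was Nos2 -1.27 to 0.13. For IL-17A at 72 h against 12 h it was Nos2 -0.13 to 1.28. For IL-1 against IL-17A at 72 h it was Saa1 -0.50 to 2.79, Saa3 -0.29 to 1.06. The cause of these changes was not tested. With 2 or 3 libraries a group, 2 labels for shared controls and low counts of Lcn2, Saa2 and Saa3 in epithelial samples, small differences were not detectable at this depth.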
